A study of Mus musculus with 27 samples.

Results

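Retinoid metabolism was followed in whole mouse liver through 9 genes out of the 51826 genes listed in the deposited tables: Rdh16f2, Rdh16, Rdh9, Rdh11, Lrat, Cyp26a1, Aldh1a1, Retsat and Rarb. They were chosen by name, with the rise of Rdh16f2 in these same libraries as the starting point. The values of Rdh16f2 are therefore given as a description with no test. All 9 genes had enough counts to be tested.

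The livers came from wild-type BALB/c mice, an inbred strain, and each of the 27 animals gave 1 bulk RNA library. There were 4 non-pregnant nulliparous animals (NUL), 3 at lactation day 10 (LAC), and 16 in the involution that follows weaning. These were 3 at day 2 (ID2), 4 at day 4 (ID4), 6 at day 6 (ID6) and 3 at day 8 (ID8). A further 4 animals were taken 4 weeks after weaning (REG, for regressed). Breeding began at 10 to 12 weeks of age, litters were evened in size, pups were removed at 10 to 14 days of lactation, and the groups were matched for age. All groups share strain and tissue, the labels name no transgene or drug, and the parous groups differ from NUL in pregnancy and in lactation together.

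Dietary vitamin A reaches the liver mainly as retinyl esters in chylomicron remnants. Hepatocytes hydrolyse these to retinol, which is esterified again and stored, mostly in stellate cells. Retinol is oxidised reversibly to retinaldehyde by retinol dehydrogenases, and retinaldehyde is oxidised irreversibly to retinoic acid by aldehyde dehydrogenases. Retinoic acid binds nuclear receptors, which switch on genes that include the CYP26 enzymes that break retinoic acid down and the receptor gene Rarb itself.

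Rdh16f2, Rdh16 and Rdh9 are close relatives that lie in the same gene cluster on chromosome 10, with Rdh19 (chr10:127849928-127861176) between Rdh16 and Rdh16f2. On GRCm38 Rdh16f2 occupies chr10:127866474-127877317 on the plus strand, with 19.9 kb between it and Rdh16 (chr10:127801152-127846565) and 73.8 kb between it and Rdh9 (chr10:127776386-127792697). All 3 are annotated as protein-coding. The annotated coding sequence of Rdh16f2 was 91.8% identical to that of Rdh16 and 91.7% identical to that of Rdh9, while Rdh16 and Rdh9 were 96.3% identical to each other. Reads that fit more than 1 gene were divided by the authors' software, which leaves counts that are not whole. Rdh16f2 had whole counts in all 27 libraries, whereas Rdh16 and Rdh9 had counts that were not whole in all 27 and Retsat in 18. The levels of Rdh16 and Rdh9 are uncertain to that extent.

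The start regions of 4 genes are shown because Rdh16f2 and Rdh9 stood on opposite sides of their nulliparous levels in lactation, and because Cyp26a1 and Rarb are the members whose start regions hold a retinoic acid response element. Each run is 300 bases, from 250 before to 50 after the start site in RefSeq on GRCm38.p6, the C57BL/6J reference and not the BALB/c strain. Capitals mark the DR5 element, a direct repeat of the receptor half-site searched on both strands. The windows are chr10:127866226-127866525 (plus strand) for Rdh16f2, chr10:127776155-127776454 (plus) for Rdh9, chr19:37697558-37697857 (plus) for Cyp26a1 and chr14:16575427-16575726 (minus) for Rarb.
Rdh16f2: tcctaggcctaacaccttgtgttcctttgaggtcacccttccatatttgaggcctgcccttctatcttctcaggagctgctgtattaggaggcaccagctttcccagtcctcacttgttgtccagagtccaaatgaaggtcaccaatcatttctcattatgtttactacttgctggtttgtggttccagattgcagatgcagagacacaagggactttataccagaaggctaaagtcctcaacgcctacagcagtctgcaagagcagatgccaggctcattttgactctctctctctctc
Rdh9: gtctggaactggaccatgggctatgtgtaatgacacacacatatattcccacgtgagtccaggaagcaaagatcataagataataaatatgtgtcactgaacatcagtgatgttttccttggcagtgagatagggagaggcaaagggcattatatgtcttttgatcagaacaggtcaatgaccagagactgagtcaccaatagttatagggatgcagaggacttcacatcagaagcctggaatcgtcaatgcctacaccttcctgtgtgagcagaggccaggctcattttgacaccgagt
Cyp26a1: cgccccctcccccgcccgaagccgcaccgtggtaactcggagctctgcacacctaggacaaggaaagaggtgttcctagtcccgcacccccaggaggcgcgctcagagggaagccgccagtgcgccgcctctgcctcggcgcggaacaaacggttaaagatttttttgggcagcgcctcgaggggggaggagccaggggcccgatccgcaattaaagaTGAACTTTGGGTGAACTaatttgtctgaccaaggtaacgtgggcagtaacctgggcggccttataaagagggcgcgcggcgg
Rarb: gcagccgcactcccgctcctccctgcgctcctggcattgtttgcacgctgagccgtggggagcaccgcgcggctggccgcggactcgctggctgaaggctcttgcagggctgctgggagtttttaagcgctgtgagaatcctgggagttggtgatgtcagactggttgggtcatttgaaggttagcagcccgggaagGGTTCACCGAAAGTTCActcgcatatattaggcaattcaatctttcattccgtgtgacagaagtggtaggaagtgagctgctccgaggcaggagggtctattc
All 9 genes had a RefSeq window. The DR5 element stood at position -32 of Cyp26a1 and -53 of Rarb, and was in no other member's window. Of 32851 mouse start windows of the same length, 32 (0.0974%) held one. DR1 and DR2 elements, present in 0.222% and 0.268% of windows, were in none of the member windows, and neither was the sterol element TCACNCCAC (1.24% of windows). The STAT palindrome TTCNNNGAA, in 8.3% of windows, matched in Rdh16 at -230 and in Rarb at -51, where it overlaps the DR5 element. These matches describe letters in a window and were not measured as binding.

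Rdh16f2, which encodes a retinol dehydrogenase of the RDH16 family, averaged between 4.10 and 4.73 times its nulliparous level in lactation and at days 2 and 4 after weaning, and was already high before the pups were removed. Levels are given as CPM, the count scaled to a common library total by the TMM method. The 4 NUL animals had 38.1, 18.6, 21.9 and 29.8 CPM of Rdh16f2. The 3 LAC animals had 115, 141 and 97.8 CPM, none of them near the NUL range. At ID2 the values were 113, 102 and 118 CPM, and at ID4 they were 113, 113, 150 and 136 CPM. The ID2 and ID4 ranges both overlap the LAC range, so the level at lactation day 10 was carried through the first days after weaning.

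Later values of Rdh16f2 were lower but did not return to the NUL range. The 6 ID6 animals ran from 76.4 to 129 CPM with a median of 83.9, the 3 ID8 animals had 114, 68.2 and 70.4 CPM, and the 4 REG animals had 70.9, 66.7, 60.4 and 54.4 CPM. The lowest of the 23 libraries from LAC onward (54.4 CPM) was above the highest NUL library (38.1 CPM). Over all 16428 genes tested, 0.0487% showed that pattern in the same direction. As this pattern was in view when the genes were chosen, the share is printed only as background.

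Group means of Rdh16f2 in rising order were 27.1 ± 8.71 CPM in NUL, 63.1 ± 7.22 in REG, 84.1 ± 25.6 in ID8, 96.3 ± 23.1 in ID6, 111 ± 8.38 in ID2, 118 ± 21.9 in LAC and 128 ± 18.5 in ID4 (SD). Only the step from NUL to REG exceeded the larger of the SDs of the groups compared. Every other neighbouring pair in that order overlapped. On the log2 scale the fitted difference from NUL was 2.12 in LAC, 2.03 in ID2, 2.24 in ID4, 1.83 in ID6, 1.63 in ID8 and 1.22 in REG. The step from LAC to ID2 was -0.09 and that from LAC to ID4 was 0.12, so these data place the difference between NUL and LAC and hold no rise of similar size after weaning.

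**Figure D1:**
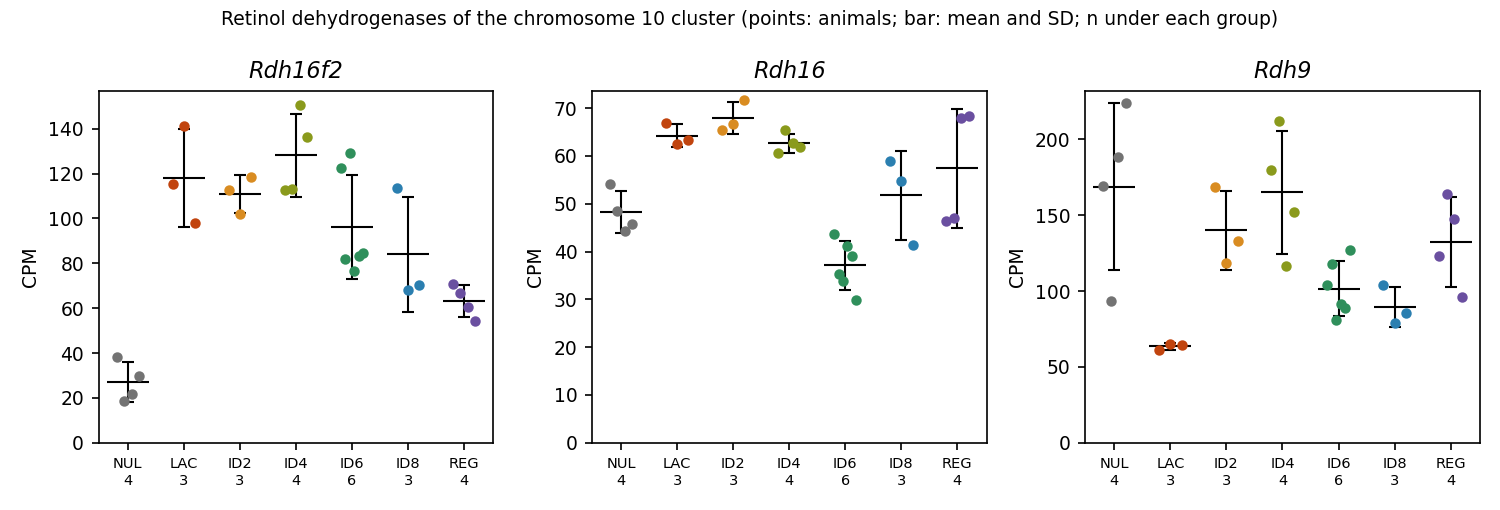
CPM of Rdh16f2, Rdh16 and Rdh9 in each animal (points) with the group mean and SD (bars), by stage from NUL to REG, with the number of animals under each group. Rdh16f2 is above its NUL range in every later animal, while Rdh9 is lowest in LAC at 61.1 to 65.1 CPM.

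Title numbers under 200 occur in 2 of 3 ID2, 2 of 4 ID4 and all 3 ID8 animals and in no other group, and the labels do not say what they mark. Among animals numbered 200 and over, Rdh16f2 stood at 113 CPM in the ID2 animal and at 150 and 136 CPM in the ID4 animals, above the NUL range as in the lower-numbered animals.

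Rdh9, another retinol dehydrogenase of this family, moved the opposite way in lactation. NUL animals had 169, 93.4, 188 and 223.97 CPM of Rdh9, and the LAC animals had 61.1, 65.1 and 64.5 CPM. The LAC values were tight and all below the lowest NUL value. Rdh9 fell by 1.41 on the log2 scale (SE 0.247, edgeR's quasi-likelihood fit, p adjusted over all genes by the Benjamini-Hochberg method, adjusted p = 7.46e-04, n = 3 against 4). At ID2 it was 169, 118 and 133 CPM, above every LAC animal, a log2 rise of 1.14 from LAC (SE 0.257, edgeR adjusted p = 0.0047). Over the alternatives tried, that adjusted p was highest, at 0.067, with a score of clock genes in the model, a proxy for time of day. Rdh9 averaged 165 ± 40.5 CPM in ID4, 102 ± 17.9 in ID6, 89.4 ± 12.9 in ID8 and 132 ± 29.7 in REG.

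Rdh16 encodes a retinol and steroid dehydrogenase and was lowest 6 days after weaning. Its NUL values were 54.2, 48.5, 44.3 and 45.8 CPM, and LAC values were 67.0, 62.5 and 63.4 CPM. All LAC animals exceeded all NUL animals. The log2 rise was 0.42 (SE 0.132, edgeR adjusted p = 0.0404), and the call was lost in 6 of 7 fits that left out 1 animal, with the adjusted p reaching 0.126 without the LAC animal titled LAC_200. ID4 values of 60.6, 65.4, 62.8 and 61.8 CPM gave way to an ID6 range of 29.8 to 43.7 CPM with a median of 37.1. That fall of 0.76 on the log2 scale (SE 0.111, edgeR adjusted p = 1.73e-04) passed in all 10 fits without 1 animal. Rdh16 was called higher in ID8 than in ID6 by 0.48 (SE 0.121, edgeR adjusted p = 0.0249), with overlapping ranges and a loss of the call in 4 of 9 such fits. All 3 ID8 animals have title numbers under 200 and all 6 ID6 animals have higher ones. With title number as a covariate the difference was 0.43 and its adjusted p 0.276, and the count of all genes called between ID8 and ID6 went from 677 to 6. REG animals fell into a low pair (46.3 and 46.9 CPM) and a high pair (68.0 and 68.4 CPM).

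Within the cluster, Rdh7, also a retinol dehydrogenase, held most of the counts, and Rdh16f2 made up a changing share. On the per-length TPM scale, where genes can be compared, Rdh7 was at 1172 ± 74.3 in NUL and 951 ± 45.2 in LAC. Rdh16f2 was at 32.7 ± 10.2 TPM in NUL and 132 ± 20.3 TPM in LAC, and Rdh9 at 88.8 ± 29.2 and 30.8 ± 2.13 TPM. The ratio of Rdh16f2 to Rdh9 in TPM ran from 0.265 to 0.518 in NUL and from 3.49 to 5.05 in LAC, so their order was reversed in every LAC animal. The ratio averaged 1.85 ± 0.268 in ID2, 1.93 ± 0.779 in ID4, 2.28 ± 0.819 in ID6, 2.13 ± 0.329 in ID8 and 1.13 ± 0.230 in REG. Of the summed CPM of Rdh16f2, Rdh16, Rdh9, Rdh1, Rdh7 and Rdh19, Rdh16f2 held 1.67 ± 0.493% in NUL, 8.18 ± 0.869% in LAC and 3.85 ± 0.356% in REG. The sum itself was 1615 ± 136 CPM in NUL, 1437 ± 114 in LAC and 1636 ± 61.0 in REG.

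**Figure D2:**
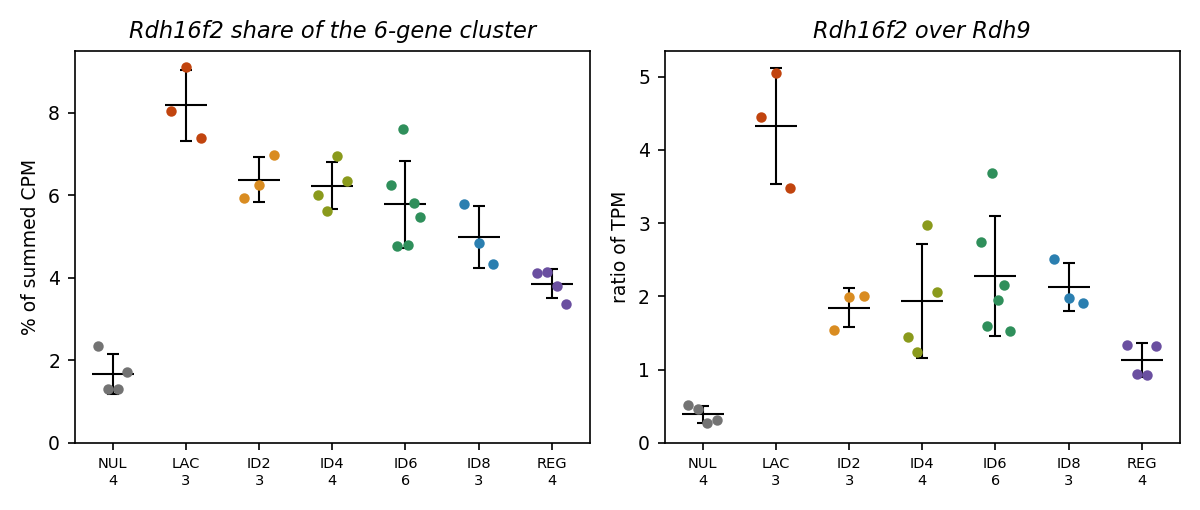
Left, Rdh16f2 as a percentage of the summed CPM of 6 clustered Rdh genes in each animal; right, the ratio of Rdh16f2 to Rdh9 in TPM, with group mean and SD and the number of animals under each group. In NUL the share averages 1.67% and in LAC 8.18%, and no NUL ratio is above 0.518.

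The genes around Rdh16f2 were examined to see what moved beside it. Within 250 kb there are 21 other annotated protein-coding genes, of which 18 were tested, and 5 were called between LAC and NUL (edgeR; background 11.2% of all genes tested). Besides Rdh16 and Rdh9 these were Nab2, a co-repressor of EGR factors, higher by 1.20 on the log2 scale (SE 0.163, edgeR adjusted p = 2.17e-05), Stat6, a transcription factor of interleukin signalling, higher by 0.48 (SE 0.079, adjusted p = 2.32e-04), and Nemp1, a nuclear envelope protein, higher by 0.67 (SE 0.192, adjusted p = 0.0221). The Nemp1 call was lost in 4 of 7 fits without 1 animal. Rdh7, 6.7 kb from Rdh16f2, differed by -0.20 (SE 0.112, edgeR adjusted p = 0.283) and was not called, though limma called it lower on the TPM scale. TPM had no TMM scaling, and there the median log2 change of all genes was -0.05, with 36.3% of limma calls higher. Rdh16f2 itself was chosen for its change in these libraries, so its rank among the neighbours is no finding. Nab2 overlaps both Stat6 and Nemp1, and the use of strand in counting is not given in the sources used here, so reads from the overlaps cannot be told apart. The same holds for Rdh16, Lrat, Aldh1a1, Retsat and Rarb, each of which overlaps another annotated gene. Rdh9 overlaps Rdh16f1 (chr10:127759787-127792694) on the same plus strand, so strand could not separate their reads. Rdh16f1 averaged 0.175 CPM in NUL and 0.436 CPM in LAC.

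**Figure D3:**
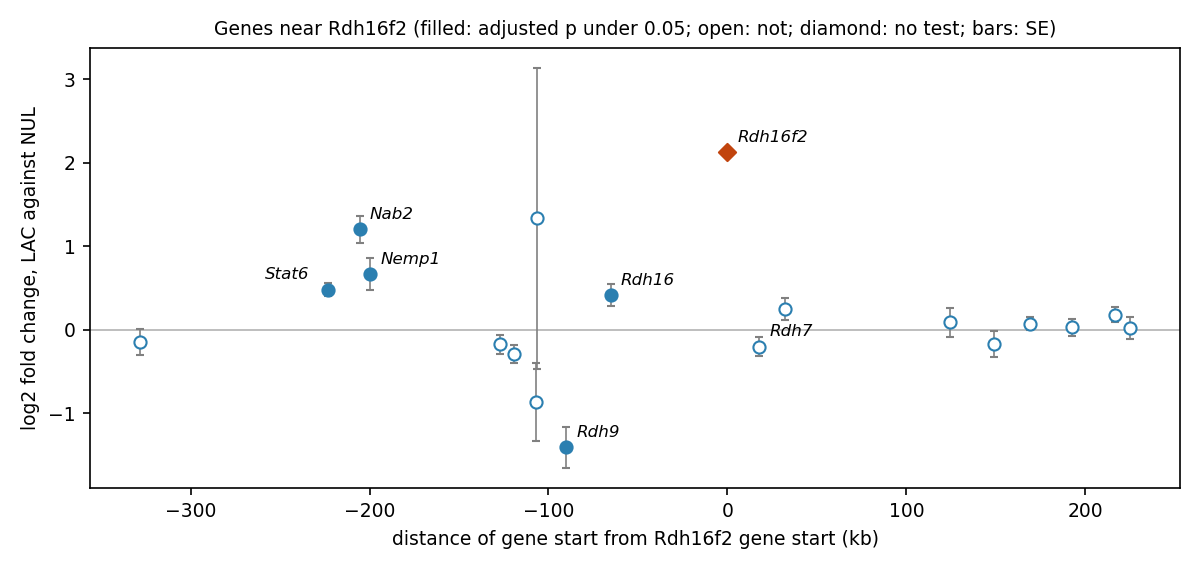
Log2 fold change between LAC and NUL for the tested genes near Rdh16f2, against the distance of each gene start from that of Rdh16f2 in kb, with SE bars; filled points passed an adjusted p of 0.05 and the diamond (Rdh16f2) was not tested. Rdh16f2 lies at 2.12 and Rdh9 at -1.41.

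The 5 genes whose log2 CPM followed Rdh16f2 most closely over the 27 libraries, among 10553 genes ranked, were Bid, F7, Acp5, Cpq and Cyp2a4. Their Pearson correlations with Rdh16f2 were 0.824, 0.814, 0.812, 0.809 and 0.799, and the Spearman values 0.781, 0.861, 0.849, 0.830 and 0.507. These points share libraries and stages, and the correlations are a description. Cyp2a4, a steroid hydroxylase of the cytochrome P450 family, averaged 587 CPM in NUL and between 1139 and 1447 CPM in each later group.

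Lrat esterifies retinol for storage and is known in liver as a stellate cell gene. It showed no called difference in any of the 14 comparisons made. NUL animals had 7.16, 8.76, 11.1 and 7.89 CPM of Lrat, and LAC animals 10.4, 9.23 and 8.71 CPM. Group means over all 7 stages lay between 8.50 ± 1.46 CPM (ID6) and 11.0 ± 1.69 (ID2), with overlapping ranges, and the joint edgeR test over stages gave an adjusted p of 0.307. The log2 difference between LAC and NUL was 0.12 (SE 0.170, edgeR adjusted p = 0.749). Other stellate cell markers were lower in the same LAC libraries. The 14 listed (Reln and Des among them) summed to 491 to 582 CPM in NUL and 398 to 409 CPM in LAC, and 9 of the 14 were called lower with none at 0 (6.00% of all genes were called lower). Sinusoidal endothelial markers summed to 264 to 300 CPM in NUL and 205 to 239.2 in LAC (1 of 6 called lower), and cholangiocyte markers to 33.9 to 47.2 and 21.4 to 27.9 CPM (2 of 5). Hepatocyte and erythroid markers had higher sums in LAC than in NUL. In bulk liver, fewer cells of a type, less RNA per cell and more RNA from other cells cannot be told apart. Their part in the level of Lrat was not tested.

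Rdh11, a reductase that turns retinaldehyde back into retinol, was high in lactation and low 4 days after weaning. NUL animals had 59.6, 54.7, 48.8 and 74.3 CPM, and LAC animals 180, 170 and 150 CPM. The LAC level was higher than NUL without overlap, a log2 rise of 1.49 (SE 0.234, edgeR adjusted p = 2.80e-04). By ID2 it was 56.8, 84.2 and 68.4 CPM, with 2 of 3 animals inside the NUL range and 1 above it, a fall of 1.25 from LAC (SE 0.254, edgeR adjusted p = 0.00216).

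At ID4, Rdh11 was at 26.6, 25.1, 24.6 and 24.6 CPM, lower than every other library of the series. The log2 difference was -1.24 against NUL (SE 0.222, edgeR adjusted p = 0.00197) and -1.47 against ID2 (SE 0.235, adjusted p = 0.00142). With only animals numbered 200 and over, which leaves 1 ID2 animal that is assumed to vary like the other groups, the log2 difference from ID2 was -1.21 and its adjusted p 0.896. The ID6 range was 33.2 to 53.2 CPM with a median of 45.9, a log2 rise of 0.79 from ID4 (SE 0.205, edgeR adjusted p = 0.0197). That call was lost without ID4_211 or ID4_215, where the adjusted p reached 0.0538, and with only animals numbered 200 and over (0.83, adjusted p = 0.121). ID8 and REG averaged 67.2 ± 22.4 and 70.4 ± 26.6 CPM, overlapping NUL.

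Aldh1a1, which makes retinoic acid from retinaldehyde, was high in lactation and back within the NUL range 2 days after weaning. NUL animals had 308, 279, 187 and 249 CPM, and LAC animals 525, 459 and 436 CPM. All LAC animals were above all NUL animals, a log2 rise of 0.89 (SE 0.166, edgeR adjusted p = 8.80e-04). ID2 animals had 251.2, 244 and 280 CPM, a fall of 0.87 from LAC (SE 0.180, edgeR adjusted p = 0.0018). With only animals numbered 200 and over the difference was -0.92 and its adjusted p 0.0656. ID6 was the lowest group, from 153 to 236 CPM with a median of 178. The step from ID4 to ID6, a fall of 0.45 (SE 0.140, edgeR adjusted p = 0.0424), had overlapping ranges and was lost in 6 of 10 fits without 1 animal. Against LAC, Aldh1a1 in ID6 fell by 1.35 (SE 0.149, edgeR adjusted p = 5.26e-07).

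Retsat, the retinol saturase, was lower at days 2, 4 and 6 after weaning than in lactation. LAC animals had 255, 298 and 294 CPM, ID2 animals 159, 134 and 160 CPM, and ID4 animals 134, 98.1, 116 and 156 CPM. From LAC to ID4 it fell by 1.17 on the log2 scale (SE 0.247, edgeR adjusted p = 0.00154), and from LAC to ID6 by 1.19 (SE 0.223, adjusted p = 6.31e-04). The step from LAC to ID2 was -0.90 (SE 0.268, edgeR adjusted p = 0.025), a call lost in 5 of 6 fits without 1 animal. It was also lost in 4 of 11 other settings, among them title number as a covariate and the clock score (edgeR adjusted p = 0.201). NUL animals had 175, 258, 259 and 188 CPM, so the NUL range lies between those of LAC and ID4 and overlaps LAC. Retsat did not pass against NUL in ID4 (-0.81, edgeR adjusted p = 0.0504) or ID6 (-0.83, adjusted p = 0.0538). These values lie just past the threshold, and the ID4 value passed in 2 of 8 fits without 1 animal and in 6 of 11 other settings. The 3 ID8 animals were spread from 105 to 193 and 289 CPM, the last of them (ID8_98b) within the LAC range. REG animals had 206, 202, 236 and 173 CPM, below the LAC range, but the difference from LAC did not pass (-0.47, SE 0.247, edgeR adjusted p = 0.25).

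**Figure D4:**
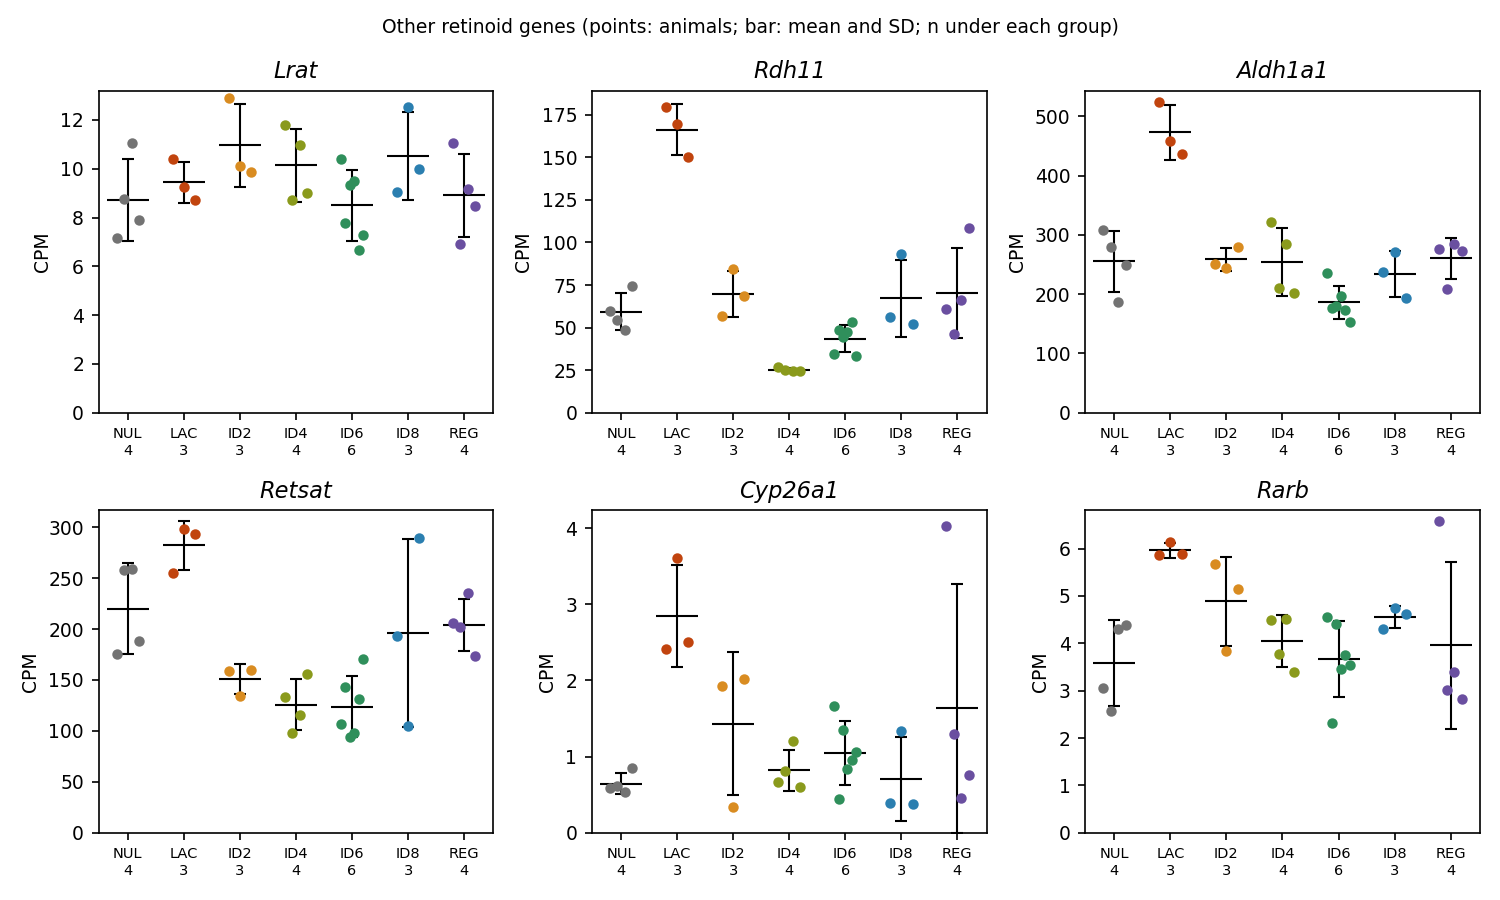
CPM of Lrat, Rdh11, Aldh1a1, Retsat, Cyp26a1 and Rarb in each animal (points) with the group mean and SD (bars), by stage, with the number of animals under each group. Rdh11 and Aldh1a1 are highest in LAC, Rdh11 is lowest in ID4 at 24.6 to 26.6 CPM, and Lrat is nearly level.

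Cyp26a1, which breaks retinoic acid down, and Rarb, a retinoic acid receptor, are the members with the DR5 element shown above. Both were highest on average in lactation, as were Rdh11, Aldh1a1 and Retsat, whose windows hold no DR5 element. NUL animals had 0.583, 0.610, 0.541 and 0.851 CPM of Cyp26a1 and LAC animals 2.41, 3.61 and 2.51 CPM, without overlap. The log2 rise was 2.14 (SE 0.609, edgeR adjusted p = 0.0243). Cyp26a1 is low in these livers, with 15 to 268 counts per library, and the call was lost in 4 of 7 fits without 1 animal, with the adjusted p reaching 0.0948 without LAC_213. ID2 animals had 1.93, 0.345 and 2.02 CPM, the low value in ID2_31. That library also had a sum of 1361 CPM over 10 pancreas acinar markers, which were at 0 to 0.158 CPM in the other ID2 libraries. The same markers summed to 91.5 CPM in ID4_15, to 28.7 CPM in ID8_98b, the ID8 animal with the highest Retsat, and to at most 1.71 CPM in every other library. Their part in the member values was not tested.

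Rarb in NUL was at 3.06, 2.58, 4.31 and 4.39 CPM and in LAC at 5.86, 6.14 and 5.89 CPM. The LAC values were tight and above the NUL range, a log2 rise of 0.73 (SE 0.238, edgeR adjusted p = 0.0436). The call was lost in 5 of 7 fits without 1 animal, with the adjusted p reaching 0.128 without NUL_221. ID2 animals had 5.67, 3.85 and 5.14 CPM, and ID2_31 was the lowest for Rarb as it was for Cyp26a1. In REG, the animal titled REG_203 had 6.59 CPM of Rarb against 2.82 to 3.39 in the other animals, and 4.03 CPM of Cyp26a1 against 0.460 to 1.297. The high REG value was thus in the same animal for both genes. Neither gene passed the joint test over stages (edgeR adjusted p = 0.0599 for Cyp26a1 and 0.116 for Rarb).

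Counting the 8 members other than Rdh16f2, 6 were called between LAC and NUL, 5 higher and Rdh9 lower, where 11.2% of all 16428 genes were called (5.19% higher and 6.00% lower). The count of 6 was 3 to 5 in the fits without 1 animal, with 3 both without LAC_213 and without NUL_221, and it was 4 by limma (8.67% of all genes) and 3 with no filter on low counts (5.70%). Against NUL, 1 was called in ID2 (Rdh16, higher by 0.49; background 3.24%), 1 in ID4 (Rdh11, lower; 4.25%) and 0 in ID6, ID8 and REG (1.08%, 0.499% and 0.0852%). At an unadjusted p under 0.05, 5, 1 and 1 of the 8 passed in ID6, ID8 and REG, beside 11.9%, 12.8% and 7.17% of all genes. DESeq2 called 3 in ID4, 4 in ID6 (Rdh16, Rdh9, Aldh1a1 and Retsat, all lower), 1 in ID8 (Rdh9) and 0 in REG, where it called 6.90%, 2.75%, 1.47% and 0.420% of all genes, while limma called 0 in ID2, ID6, ID8 and REG (2.12%, 1.22%, 0.201% and 0.0487% of all genes). The Rdh16 call in ID2 was lost in 6 of 7 fits without 1 animal and in 5 of 11 other settings. From LAC to ID2, 4 were called, Rdh9 higher and Rdh11, Aldh1a1 and Retsat lower (background 16.1%, with 8.48% higher and 7.64% lower). From ID4 to ID6, 4 were called, Rdh11 higher and Rdh16, Rdh9 and Aldh1a1 lower (background 8.53%, with 3.89% higher and 4.64% lower). Limma called 2 there, with 10.1% of all genes called and 82.2% of those calls higher. In that step the Rdh9 call (edgeR adjusted p = 0.0299) was lost in 6 of 10 fits without 1 animal and in 6 of 11 other settings, and Aldh1a1 in 8 of those 11. From ID2 to ID4 only Rdh11 was called (1.49%). Against LAC, 5 were called in ID4 (background 22.4%), 6 in ID6 (16.4%) and 3 in REG (11.7%), with Rdh9 higher and Rdh11 and Aldh1a1 lower in each of them. Without 1 animal, Rdh9 in ID6 against LAC (edgeR adjusted p = 0.0438) was lost in 7 of 9 fits, Cyp26a1 in ID4 in 6 of 7 and Rarb in ID6 in 4 of 9. From ID6 to ID8 only Rdh16 was called (4.12%), and DESeq2 added Rdh11 (7.31% of all genes by DESeq2). From ID8 to REG edgeR called 0 (0.0487%), with 1 at an unadjusted p under 0.05 (9.02% of all genes) and 0 by DESeq2 and limma. Rdh16, Rdh9, Rdh11, Aldh1a1 and Retsat passed the joint test over all stages, 5 of 8 against 26.97% of all genes. The median log2 change of the 8 from NUL to LAC was 0.57, beside -0.01 for all genes. Since the members were picked with earlier results known, these counts describe the members and the median was given no test.

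**Figure D5:**
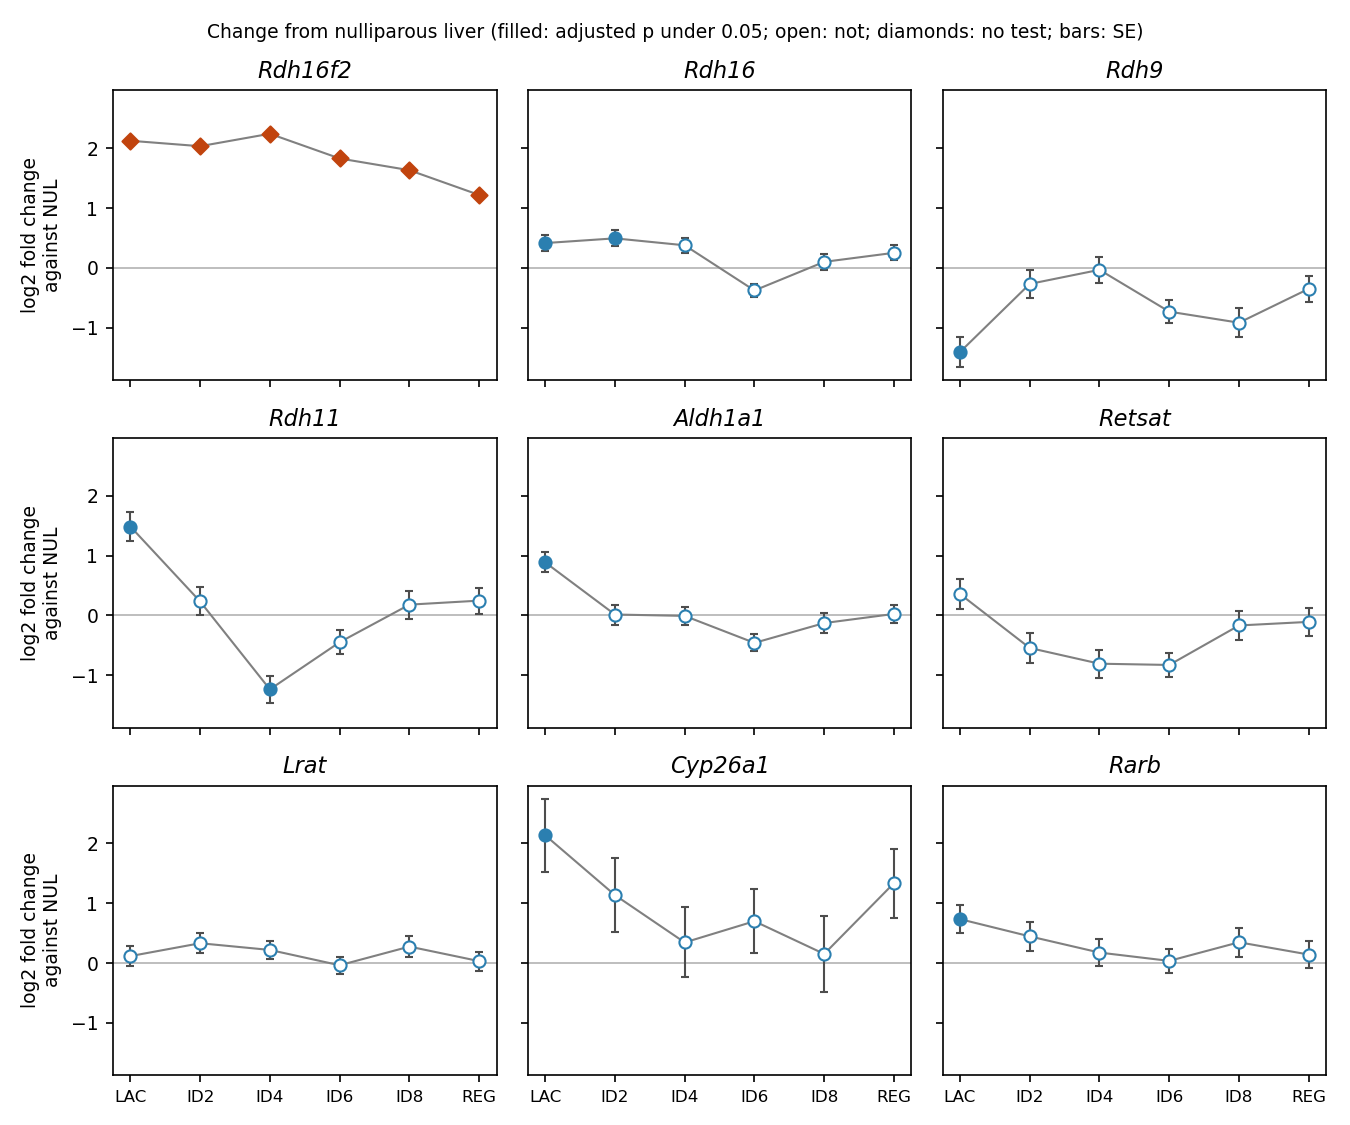
Log2 fold change of each member against NUL at LAC, ID2, ID4, ID6, ID8 and REG, with SE bars; filled circles passed an adjusted p of 0.05, open circles did not, and the diamonds of Rdh16f2 were not tested. Of the members other than Rdh16f2, none has a filled point after ID4.

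Beyond the members, 60 further retinoid genes were listed by role, and 46 had enough counts. Between LAC and NUL, 12 of the 46 were called, 7 higher and 5 lower, and the median log2 change was -0.04 (all genes: 11.2% called, 5.19% higher and 6.00% lower, median -0.01). The largest rises were Pnpla3, a lipase that acts on retinyl esters and triglycerides, from 5.67 ± 3.37 to 52.0 ± 2.14 CPM (3.19, SE 0.861, edgeR adjusted p = 0.0191), Cyp26b1, a relative of Cyp26a1, from 0.911 ± 0.473 to 5.38 ± 2.57 CPM (2.57, SE 0.794, adjusted p = 0.0409), and Fabp5, a carrier of fatty acids and retinoic acid, from 64.3 ± 13.3 to 336 ± 77.0 CPM (2.39, SE 0.396, adjusted p = 5.58e-04). Without 1 animal, the Cyp26b1 call was lost in all 7 fits and the Pnpla3 call in 3 of 7. The largest falls were Rarres2, the adipokine chemerin (-0.75, edgeR adjusted p = 0.00221), the aldehyde oxidase Aox3 (-0.68, adjusted p = 0.00158) and the alcohol dehydrogenase Adh4 (-0.48, adjusted p = 0.0432), the last of them lost in 5 of 7 such fits.

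The calls between LAC and NUL are given by role, beside 11.2% of all genes called and with no test between roles. In the retinol and retinaldehyde interconversion group, to which the 4 Rdh members would belong, 1 of 15 tested genes was called, Adh4. In retinaldehyde oxidation 3 of 6 were called, 2 higher and 1 lower, with a median log2 change of -0.29 over the 6. Aldh1a7, the neighbour and close relative of Aldh1a1, rose by 1.39 (SE 0.223, edgeR adjusted p = 3.07e-04). Its activity on retinaldehyde was not measured here. Of the binding and uptake genes 3 of 6 were called, of the storage and ester hydrolysis genes 2 of 6, of the carotenoid cleavage genes 1 of 2, of the retinoic acid breakdown genes 1 of 2 (Cyp26b1) and of the retinoic acid responsive genes 1 of 4 (Rarres2). By edgeR none of the 5 receptors Rara, Rarg, Rxra, Rxrb and Rxrg was called (1 at an unadjusted p under 0.05, beside 23.6% of all genes, and none by DESeq2 or limma). Rarb was called by edgeR and DESeq2 but not by limma, and the difference between it and the other receptors was not tested.

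After weaning the wider list moved in both directions. From LAC to ID2, 13 of 46 were called, 7 higher and 6 lower (all genes: 16.1%, 8.48% and 7.64%), led by Aldh1a2 (2.08, edgeR adjusted p = 0.019), Rarres2 (0.88, adjusted p = 7.49e-04) and the retinol dehydrogenase Rdh5 (0.64, adjusted p = 0.00737) upward and by Pnpla3 (-3.87, adjusted p = 0.0122), Fabp5 (-1.47, adjusted p = 0.0231) and Aldh1a7 (-1.07, adjusted p = 0.00461) downward. Aldh1a2 had only 4 to 57 counts per library, its difference ran from 0.34 to 2.49 over the alternatives, and its call was lost in 3 of 6 fits without 1 animal. Fabp5 was lost in 4 of 6 such fits, with differences from -2.21 to -1.20, and Pnpla3 and Rdh5 in 1 of 6 each. With the animals numbered 200 and over alone 3 of the 46 were called, where the share of all genes was 2.27%. In ID4 against NUL, 5 were called (all genes: 4.25%), and those led with the carotenoid and lipoprotein receptor Scarb1 (0.71, edgeR adjusted p = 9.94e-04), Rarres2 (0.57, adjusted p = 0.02) and Rdh5 (0.49, adjusted p = 0.0376) upward, with only the oxidase Aox1 lower (-0.56, adjusted p = 5.35e-04). The Rdh5 call was lost in 7 of 8 fits without 1 animal and in 6 of 11 other settings, and Rarres2 in 2 of 8 such fits. From ID4 to ID6, 10 were called (all genes: 8.53%), with Pnpla3 (3.46, edgeR adjusted p = 0.0192), Fabp5 (1.80, adjusted p = 0.00381) and Ces1e (0.39, adjusted p = 0.0202) upward and Rdh5 (-0.69, adjusted p = 0.00107), Scarb1 (-0.60, adjusted p = 0.00147) and Pnpla2 (-0.40, adjusted p = 0.0183) downward. Of these, Ces1e was lost in 3 of 10 fits without 1 animal and Pnpla3 and Pnpla2 in 2 of 10. Ces1e, Pnpla3 and Pnpla2 were each also lost with title number as a covariate. In the fit of animals numbered 200 and over alone the last count was 2, beside 1.60% of all genes. In REG against NUL, none of the 46 was called by edgeR (background 0.0852%). At an unadjusted p under 0.05, 4 of them passed (7.17% of all genes), DESeq2 called 1 (Aox1; 0.420% of all genes) and limma 0. The joint test over stages called 22 of 46, beside 26.97% of all genes.

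Other cell type markers moved with the stages in the same libraries. Beside the counts that follow, 5.19% of all genes were called higher and 6.00% lower in LAC than in NUL, 4.25% were called either way between ID4 and NUL, and 4.64% were called lower in ID6 than in ID4. Pericentral hepatocyte markers, with 4 of 8 called lower in LAC than NUL, summed to 4408 to 6842 CPM in NUL and 2503 to 2850 CPM in LAC, and none was at 0. Kupffer cell markers were lower in LAC (4 of 6 called, 199 to 287 CPM against 304 to 388) and higher in ID4 (5 of 6, 529 to 591 CPM). Genes of the day arm of the clock summed to 164 to 297 CPM in ID2 and 55.7 to 111 CPM in NUL. Erythroid markers, all 5 called lower in ID6 than in ID4, summed to 407 to 1027 CPM in ID4, 53.1 to 264 in ID6, 19.9 to 35.0 in ID8 and 335 to 712 in NUL, so they were lower at the same step as Rdh16, Rdh9 and Aldh1a1. At that step 4 of 8 pericentral markers were also called lower, with sums of 6343 to 7716 CPM in ID4 and 3665 to 6341 CPM in ID6, and 4 of the 8 had been called higher in ID4 than in LAC (22.4% of all genes called either way). Periportal hepatocyte markers, with 5 of 7 called higher in ID2 than in LAC (8.48% of all genes called higher), averaged 3008 CPM in LAC, 5745 in ID2, 5116 in ID4 and 3382 in ID6. Hepatocyte markers, 7 of 8 matched, summed to 99650 to 123800 CPM in NUL and 187100 to 232500 in LAC without overlap, with 2 of 7 called higher. That sum is mostly Alb (albumin), at 89790 CPM in NUL and 177100 CPM in LAC, higher by 0.98, and the median log2 change of the 7 was 0.14. The part of these lists in the member values was not tested. Totals per library ran from 41120650 to 75664540 counts.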

How the data were processed

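Bulk RNA from 27 livers was sequenced by the authors, and groups were taken from the sample titles. Per the submitters' processing notes, STAR 2.6.1a and RSEM 1.3.1 were used with mm10 (GRCm38). The roles of the tools, the annotation and the use of strand are not given in the sources used here. Expected counts, the authors' estimates of reads per gene, and TPM, the authors' per-length values, were deposited for each library, per the file headers. Effective lengths, also deposited, served 1 alternative. Symbols and positions came from GENCODE M21, which held 51633 of the 51826 identifiers.

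These expected counts, once rounded to integers, were fitted in edgeR 4.0.16 (R 4.3.3) with filterByExpr, TMM and robust quasi-likelihood over all 7 groups, which kept 16428 genes. Tests were two-sided, and calls were made at p under 0.05 after Benjamini-Hochberg adjustment over all genes, in each of 14 comparisons. SE was derived from the F statistic. No pair of libraries of a group agreed within sampling noise. Each library is 1 animal, so p-values rest on the spread between animals. Correlations used log2 CPM over genes averaging at least 1 on that scale. Genes outside the members were named by a rule: up to 3 called genes of the wider list in each direction for each of 5 comparisons, the coding genes within 250 kb of Rdh16f2, and the 5 genes most like it. Aldh1a7, Cyp2a4 and the genes named beside a count outside that rule were chosen after their values were seen. Members and lists were chosen with earlier results of these data known. Alternatives were RLE scaling, DESeq2 1.42.0, other filters, only the groups compared, title number, limma 3.58.1 on log2(TPM + 1) and log2(TPM + 0.1), effective length, a clock score, an adjusted p under 0.01, the cluster summed, and leaving out each animal.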

Additional observations from a re-analysis of the deposited data

Results flagged for a closer look

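In the 36 sets of 4 or 6 animals checked for 1 animal far from the others (9 members in NUL, ID4, ID6 and REG), 2 were marked, and chance alone marks about 1 set in 20. Rarb in the regressed animal titled REG_203 was at 6.585 CPM, above 2.82 to 3.39 CPM in the other REG animals, a gap of 0.848 of the range. Aldh1a1 in the animal titled REG_214 was at 208.3 CPM, below 272 to 284 CPM in the others, a gap of 0.851 of the range. The causes were not tested.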

How the results depend on the processing

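The differences of Rdh16f2 from NUL stayed within the spread between animals in every setting except 1. With the 6 Rdh cluster genes summed into 1 row, a different quantity made up mostly of Rdh7, they became -0.168 (LAC), 0.112 (ID2), 0.346 (ID4), 0.040 (ID6), 0.046 (ID8) and 0.019 (REG). Without each animal in turn they ran from 1.98 to 2.34 in LAC, 1.89 to 2.24 in ID2, 2.10 to 2.45 in ID4, 1.68 to 2.04 in ID6, 1.36 to 1.84 in ID8 and 1.08 to 1.43 in REG. The joint counts, 5 members and 22 wider genes, ran from 5 to 7 and from 18 to 23. The wider count for LAC against NUL, 12, was 7 at an adjusted p under 0.01 (822 of all 16428 genes, against 1837) and 8 to 10 without 1 animal. That for ID2 against LAC, 13 (16.1% of all genes), was 6 with title number as a covariate (7.60%), 3 with animals numbered 200 and over (2.27%), 7 with the clock score (8.94%), 6 at an adjusted p under 0.01 (6.86%) and 7 to 13 without 1 animal, with 7 both without ID2_39 and without LAC_213. That for ID4 against NUL, 5 (4.25%), was 8 with DESeq2 (6.90%), 8 with only the groups compared (4.87%), 3 with animals numbered 200 and over (1.03%), 3 at an adjusted p under 0.01 (1.59%) and 3 to 5 without 1 animal, with 3 both without ID4_215 and without NUL_226. That for ID6 against ID4, 10 (8.53%), was 5 with title number as a covariate (4.07%), 2 with animals numbered 200 and over (1.60%), 4 at an adjusted p under 0.01 (2.79%) and 5 to 11 without 1 animal, lowest without ID4_13. The causes of these shifts were not tested, and the settings that leave animals out also have fewer animals. None of the 63 single-gene differences recomputed reversed its direction in any setting run. No paired analysis was possible because no title number occurs in more than 1 group. Cyp26a1, Rarb, Aldh1a2 and Cyp26b1 are limited by low counts.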
